A study of Homo sapiens with 12 samples.

Results

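The genes described here are the keratin genes, taken as every row of the expression tables whose Ensembl identifier carries a symbol made of KRT, a number and at most 1 of the letters A, B or C. That rule leaves out keratin pseudogenes and keratin-associated proteins, and it found 53 genes among 37247 rows. Of these, 27 encode type I keratins and 26 encode type II keratins. KRT33B and KRT37 were not analysed here.

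The libraries came from 2 established human tumour lines described as RET-aberrant. LC-2/ad derives from a lung cancer and TPC-1 from a papillary thyroid cancer. Each line was measured as parent cells, whose treatment is given as none, and after 48 h in 100 nM selpercatinib, a small molecule that inhibits the RET receptor tyrosine kinase. Each of the 4 groups held 3 libraries, 12 in all. LC-2/ad cells grew in mixed RPMI-1640 and F-12 medium with serum and TPC-1 cells in RPMI-1640 with serum. The labels do not state whether parent cells received the drug's solvent, nor whether each library was a culture of its own, so p-values reflect no more than library-to-library spread, possibly technical.

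Keratins are the intermediate filament proteins of epithelial cells. A filament is built from pairs of 1 acidic type I chain and 1 basic or neutral type II chain, so the cell needs both types, and an unpaired chain is usually degraded. Simple epithelia, such as those of lung and thyroid, use KRT8 with KRT18, together with KRT7 and KRT19. Stratified epithelia add KRT5, KRT14 and KRT15 in the basal layer and KRT4 with KRT13, or KRT1 with KRT10, above it. KRT6A, KRT16 and KRT17 are known from wounded and fast-growing epidermis, and the KRT31 to KRT40 and KRT81 to KRT86 genes from the hair shaft. Most type I genes lie in 1 cluster on chromosome 17 and the type II genes in another on chromosome 12, where KRT18 is the only type I gene.

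The values are TPM, a share of each library's transcripts corrected for transcript length, so levels of different keratins can be set beside each other. TPM keep no read count, and the depth of the libraries is unknown. Along the first principal component all treated libraries lay apart from the parent libraries of their line, and TPC-1 parent library 1, at -4.93 against -23.3 and -17.7, stood nearest to the treated ones. Transcripts of mitochondrial DNA took 9.72% to 9.82% of all TPM for parent LC-2/ad libraries and 14.0% to 15.0% for treated ones, against 6.41% to 7.56% and 5.83% to 6.82% in TPC-1. Their part in the results was not tested, but each keratin was tested again with these transcripts removed. EPCAM, an epithelial surface protein, stood at 379 TPM ± 17.6 (SD, n = 3) in LC-2/ad parent cells and at 4.33 ± 0.899 in TPC-1 parent cells. In TPC-1 the adhesion protein CDH1 was at 0.434 ± 0.327, and the filament protein VIM at 4080 ± 149.7. The lung and thyroid factor NKX2-1 was at 109.8 ± 4.32 in LC-2/ad parent cells and listed at 0 in all 6 TPC-1 libraries, where the thyroid factor PAX8 was at 190.0 ± 38.3. None of 5 blood markers reached 1 TPM in any library of either line. The 5 fibroblast markers summed to 28.9 to 34.0 TPM in LC-2/ad parent libraries and 35.4 to 40.8 in treated ones. Most of that sum is COL1A1, while COL3A1, DCN and PDGFRB had group means of at most 0.217 TPM in that line. LUM rose by 1.05 (0.495 to 2.12 TPM, adjusted p = 0.00231), and of the endothelial markers CDH5 rose by 0.59 (2.07 to 3.63 TPM, adjusted p = 0.00663). KDR, the highest endothelial marker, did not pass (12.4 to 11.5 TPM, log2 fold change -0.10, adjusted p = 0.367). PECAM1 (0.738 to 0.244 TPM) and VWF (0.151 to 0.453 TPM) were too low to test. The epithelial marker EPCAM fell by 0.20 in LC-2/ad (379 to 329 TPM, adjusted p = 0.00471), while CDH1, CLDN4 and CLDN7 did not pass there. Of the lung and thyroid markers tested in LC-2/ad, FOXE1, PAX8, NKX2-1 and SFTA3 rose, by 1.56, 0.53, 0.35 and 0.59. There NAPSA (0.08, adjusted p = 0.389) and SCGB3A2 (-0.01, adjusted p = 0.886) did not pass by limma. In TPC-1 PAX8 rose by 0.53 (adjusted p = 0.0458), while FOXE1 (0.02, adjusted p = 0.928) and SCGB3A2 (0.49, adjusted p = 0.102) did not pass. The part of these markers in the keratin results was not tested.

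Few keratin genes supplied nearly all keratin transcripts, and they were not the same few in the 2 lines. In LC-2/ad parent cells KRT7 made up 31.5% of the keratin TPM, KRT19 22.3%, KRT8 22.0% and KRT18 19.6%. In TPC-1 parent cells KRT7 made up 32.3%, KRT8 27.2%, KRT18 20.1% and KRT81, a hair shaft keratin, 18.8%. KRT19 and KRT81 traded places between the lines. KRT19 was at 1732 TPM ± 17.7 (SD, n = 3) in LC-2/ad against 1.86 ± 0.0439 in TPC-1 parent cells, and KRT81 at 4.06 ± 0.183 and 1187 ± 28.3. The tables of the lines were made separately, so these levels are set side by side without a test. Of the 53 keratins, 15 were listed at 0 in all 12 libraries. In LC-2/ad 17 keratins reached a mean of 1 TPM over the 6 libraries and were tested, 17 were above 0 but lower, and 19 were at 0. In TPC-1 10 were tested, 18 were lower and 25 were at 0. The plot of keratin levels by library shows these members.

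**Figure D1:**
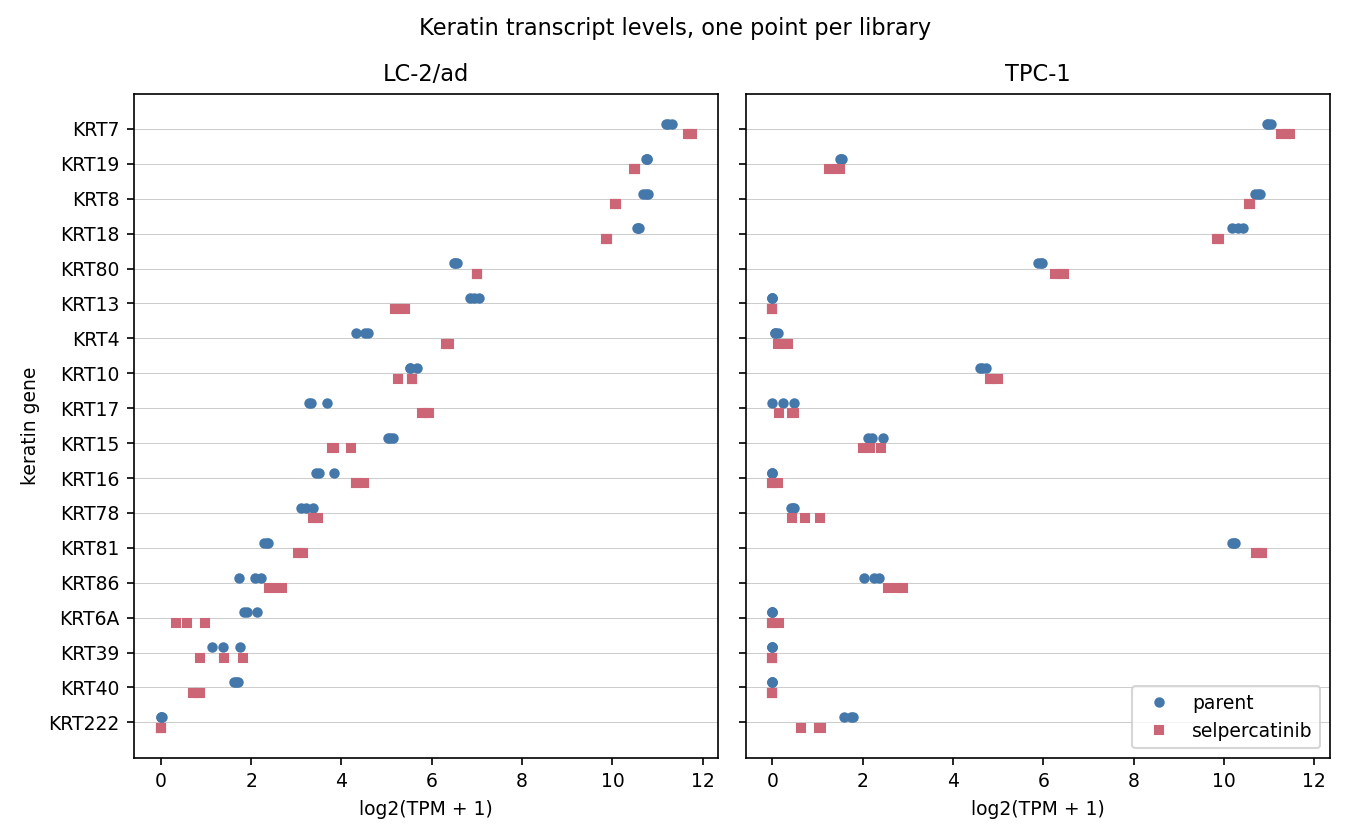
Levels of the 18 tested keratins in each library, as log2(TPM + 1), in LC-2/ad (left panel) and TPC-1 (right panel); each point is 1 library, with circles for parent and squares for selpercatinib-treated cells. KRT7, KRT8 and KRT18 lie at the right in both panels, KRT19 only in LC-2/ad and KRT81 only in TPC-1.

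After selpercatinib 14 of the 17 tested keratins changed in LC-2/ad, 7 upward and 7 downward, at an adjusted p under 0.05 (limma on log2(TPM + 1)). In that line 55% of all 14118 genes tested passed the same threshold, 30.6% upward and 24.4% downward, so the count of keratins called, set against that background, says little about keratins as a group. In TPC-1 4 of the 10 tested keratins changed, 3 upward and 1 downward, where 4.96% of 12825 genes passed, 3.75% upward and 1.21% downward. All 4 TPC-1 calls remained without parent library 1, the one nearest to the treated libraries. Only members above the minimum level entered these counts. In LC-2/ad the treated TPM lay above all parent TPM for 8 of the 17 (35.3% of all genes) and below them for 7 (27.6%), and in TPC-1 for 5 of the 10 (16.6%) and 3 (9.23%). The median log2 fold change (treated minus parent) was -0.06 over the tested keratins and 0.07 over all genes in LC-2/ad, and 0.08 and 0.05 in TPC-1. In bulk RNA a change in the number of cells that express a keratin cannot be told apart from a change in RNA per cell.

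**Figure D2:**
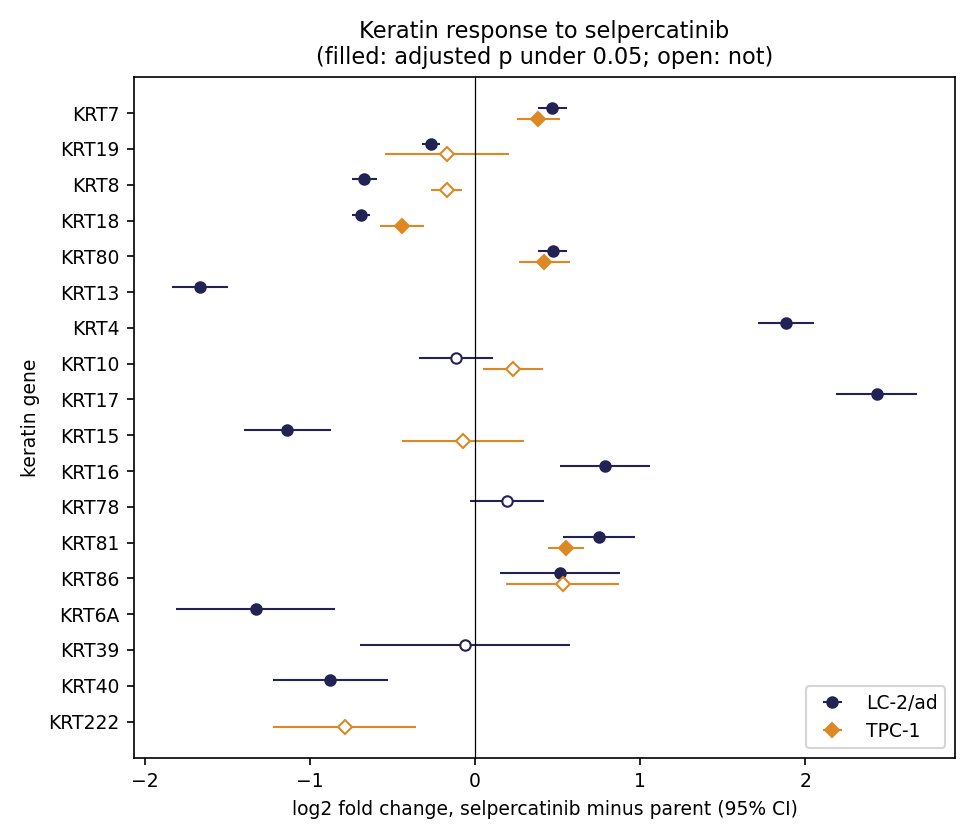
Log2 fold change of each tested keratin, selpercatinib minus parent, with its 95% confidence interval from limma, in LC-2/ad and TPC-1; filled symbols passed an adjusted p under 0.05 and open ones did not. KRT17 and KRT4 lie farthest to the right and KRT13, KRT6A and KRT15 farthest to the left, all in LC-2/ad.

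Among the simple epithelial keratins, KRT7 and KRT80 rose in both lines and KRT18 fell in both, while KRT8 and KRT19 passed the test only in LC-2/ad. KRT7, the type II keratin of ductal and glandular epithelium, lies on chr12:52232520-52252186 (GRCh38, plus strand). In LC-2/ad the 3 parent libraries held 2563, 2413 and 2347 TPM of KRT7 and the treated ones 3284, 3386 and 3458. In TPC-1 the parent values were 2104, 2027 and 1972 TPM and the treated values 2690.4, 2824 and 2456. The groups did not overlap in either line. The log2 fold change of KRT7 was 0.47 ± 0.04 (SE) in LC-2/ad (adjusted p = 3.00e-05) and 0.38 ± 0.06 in TPC-1 (adjusted p = 0.00634). The TPC-1 call was lost when low genes were kept in the fit (adjusted p = 0.0649) and without the variance trend (adjusted p = 0.0631).

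KRT8, the type II keratin of all simple epithelia, was at 1776, 1707 and 1643 TPM in LC-2/ad parent libraries. The treated libraries of that line held 1074, 1075 and 1071 TPM. The parent values of TPC-1 were 1656, 1773 and 1715 TPM and its treated values 1528, 1512 and 1523. Every treated library lay below every parent library of its line, but the sizes differed. KRT8 fell by 0.67 ± 0.03 on the log2 scale in LC-2/ad (adjusted p = 2.52e-06), to 0.628 of the parent mean. In TPC-1 the log2 fold change was -0.17 ± 0.04 and just missed the threshold (adjusted p = 0.0513). It passed at a pseudocount of 0.1 (0.0466), with a minimum mean of 5 TPM (0.0431), with mitochondrial transcripts removed (0.0417) and without TPC-1 parent library 1 (adjusted p = 0.0448). The difference between the lines, TPC-1 minus LC-2/ad, was 0.50 ± 0.05 (adjusted p = 7.66e-06).

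KRT18, the type I partner of KRT8, lies next to it on chromosome 12, and the annotated spans of the 2 genes overlap by 1084 bases on opposite strands. In LC-2/ad KRT18 was at 1520.3, 1528 and 1504 TPM in parent and 944, 940.5 and 932 in treated libraries. In TPC-1 it was at 1165, 1370.0 and 1274 TPM in parent and 926, 927 and 942 in treated libraries. The groups were separate in both lines, and in TPC-1 the parent libraries spread far more than the treated ones. KRT18 fell by 0.69 ± 0.02 in LC-2/ad (adjusted p = 5.94e-07) and by 0.44 ± 0.06 in TPC-1 (adjusted p = 0.00383). The difference of 0.25 ± 0.07 passed (adjusted p = 0.00984), but not once mitochondrial transcripts were removed (0.16, adjusted p = 0.0791). KRT8 and KRT18 moved almost in step in LC-2/ad, where the KRT8 to KRT18 ratio was 1.09 to 1.17 in parent and 1.14 to 1.15 in treated libraries. In TPC-1 that ratio was 1.29 to 1.42 in parent and 1.62 to 1.65 in treated libraries, with no overlap. The ratio of KRT7 to KRT8 was higher in treated libraries of both lines, at 3.06 to 3.23 against 1.41 to 1.44 in LC-2/ad and 1.61 to 1.87 against 1.14 to 1.27 in TPC-1.

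KRT19, the smallest keratin and a type I chain of simple and ductal epithelium, was at 1728, 1751 and 1716 TPM in LC-2/ad parent libraries. After treatment it stood at 1453, 1429 and 1441 TPM. It fell by 0.26 ± 0.02 in LC-2/ad (adjusted p = 4.76e-05), the smallest fall among the keratins called there, with separate groups. In TPC-1, where KRT19 is nearly silent, the values were 1.90, 1.86 and 1.81 TPM in parent and 1.38, 1.44 and 1.83 in treated libraries. Those groups overlapped, and the log2 fold change of -0.17 did not pass (95% interval -0.54 to 0.21, adjusted p = 0.610). In LC-2/ad parent libraries the levels of KRT8 and KRT19 overlapped. In treated ones KRT19 lay above KRT8, and KRT8 above KRT18.

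KRT80, a type II keratin found in many epithelia, was far lower than KRT7, KRT8 and KRT18, and it too rose in both lines. In LC-2/ad its parent values were 89.0, 93.9 and 90.8 TPM and its treated values 127, 127 and 127. In TPC-1 they were 60.6, 58.2 and 61.9 TPM in parent and 86.7, 75.1 and 81.2 in treated libraries. The log2 fold change was 0.47 ± 0.04 in LC-2/ad (adjusted p = 3.17e-05) and 0.42 ± 0.07 in TPC-1 (adjusted p = 0.00912). KRT20 and KRT23, the other simple epithelial members, were under the minimum level in both lines. In LC-2/ad the mean of KRT20 was 0.642 TPM in parent and 0.128 in treated cells, and that of KRT23 0.653 and 0.231, and neither passed when the filter was left out (adjusted p = 0.0763 and 0.0836).

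The keratins of stratified epithelium were measurable mainly in LC-2/ad, and the 2 keratins of wet mucosa moved in opposite directions there. KRT4, the type II mucosal keratin on chr12:52806549-52814551 (minus strand), was at 23.1, 21.9 and 19.0 TPM in parent libraries. After treatment it was at 81.6, 79.1 and 82.0 TPM. KRT4 rose by 1.88 ± 0.07 on the log2 scale (adjusted p = 1.05e-06), to 3.79 times the parent mean. KRT13, its usual type I partner on chr17:41500981-41505705 (minus strand), was at 114, 130.2 and 122 TPM in parent libraries. After treatment it was at 35.2, 41.6 and 36.9 TPM, and it fell by 1.66 ± 0.07 (adjusted p = 1.77e-06). In parent cells KRT13 was therefore the higher of the pair and in treated cells KRT4 was, in every library. KRT13 was listed at 0 in all 6 TPC-1 libraries.

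KRT15, a type I keratin of basal cells, was at 32.7, 31.8 and 34.2 TPM in LC-2/ad parent libraries and 13.2, 17.6 and 12.9 in treated ones. It fell by 1.14 ± 0.11 (adjusted p = 1.00e-04). In TPC-1 KRT15 was at 3.60, 3.36 and 4.48 TPM in parent and 3.48, 4.28 and 3.01 in treated libraries. These groups overlapped, and the log2 fold change was -0.07 (95% interval -0.44 to 0.30, adjusted p = 0.847). The difference between the lines was 1.07 ± 0.19 (adjusted p = 0.000927). KRT14, the abundant type I keratin of basal cells, was under the minimum level in LC-2/ad, at 0.494, 0.724 and 0.241 TPM in parent and 1.20, 1.29 and 1.03 in treated libraries. Without the filter its log2 fold change of 0.56 ± 0.14 passed (adjusted p = 0.0281). Of the 31-base words in the KRT14 transcripts of GENCODE 29, 33.0% also occur in other genes, so its low values are uncertain.

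KRT10, the type I keratin of suprabasal skin, changed in neither line by the test. In LC-2/ad it was at 44.6, 50.3 and 44.8 TPM in parent and 46.5, 36.9 and 46.0 in treated libraries, and the log2 fold change of -0.11 had a 95% interval of -0.34 to 0.11 (adjusted p = 0.345). In TPC-1 it was at 25.5, 23.3 and 24.1 TPM in parent and 27.8, 31.1 and 27.1 in treated libraries. The TPC-1 groups were separate, but the log2 fold change of 0.23 did not pass over all genes (95% interval 0.05 to 0.41, adjusted p = 0.146). KRT78, a type II keratin, was at 9.39, 7.56 and 8.22 TPM in LC-2/ad parent and 9.39, 9.58 and 10.2 in treated libraries. Its log2 fold change of 0.19 did not pass (adjusted p = 0.124) until mitochondrial transcripts were removed (0.27, adjusted p = 0.0471). In TPC-1 KRT78 stayed under the minimum level, at 0.362 TPM in parent and 0.693 in treated cells.

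KRT17 showed the largest change of any tested keratin, and only in LC-2/ad was it high enough to test. This type I keratin, induced in wounded and inflamed epidermis, lies on chr17:41619441-41624842 (minus strand). LC-2/ad parent libraries held 8.76, 11.8 and 9.10 TPM of KRT17 and treated ones 54.2, 57.4 and 60.2. It rose by 2.43 ± 0.11 (adjusted p = 1.64e-06), to 5.79 times the parent mean. Adding its 8 annotated pseudogenes in the tables left the values nearly as they were, at 9.52 to 12.2 TPM in parent and 54.7 to 60.9 in treated libraries. KRT6A, a type II keratin made with KRT16 and KRT17 in wounds, went the other way. Its values were 3.37, 2.57 and 2.76 TPM in LC-2/ad parent and 0.263, 0.489 and 0.978 in treated libraries, and it fell by 1.33 ± 0.21 (adjusted p = 0.00104). Of the 31-base words in KRT6A transcripts 38.7% also occur in KRT6C, a paralog, so the split of reads between them is uncertain. KRT6C itself was listed at 0 in all 12 libraries.

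KRT16, the type I partner of KRT6A, is the member whose direction differs between its own row and the sum with its pseudogene rows. Its pseudogenes KRT16P1, KRT16P2, KRT16P3 and KRT16P6 on chromosome 17 are shown beside it because that sum turns on them. The 90 bases are from exon 1 of each GENCODE 29 transcript (GRCh38), at the start of the region that encodes the KRT16 rod domain, in transcript sense, and capitals mark bases that differ from KRT16. They were picked as the coding stretch with the fewest differences over these pseudogenes, so the rest of the transcripts is less alike. The windows lie at chr17:41612220-41612309 (minus) for KRT16, chr17:18440366-18440455 (plus) for KRT16P1, chr17:16832283-16832372 (minus) for KRT16P2, chr17:20503953-20504042 (minus) for KRT16P3 and chr17:16822033-16822122 (minus) for KRT16P6.
KRT16: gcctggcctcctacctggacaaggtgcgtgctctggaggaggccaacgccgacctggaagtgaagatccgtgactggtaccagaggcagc
KRT16P1: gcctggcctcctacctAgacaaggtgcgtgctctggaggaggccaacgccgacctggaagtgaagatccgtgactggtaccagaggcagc
KRT16P2: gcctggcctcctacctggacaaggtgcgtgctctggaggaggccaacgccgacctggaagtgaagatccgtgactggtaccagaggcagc
KRT16P3: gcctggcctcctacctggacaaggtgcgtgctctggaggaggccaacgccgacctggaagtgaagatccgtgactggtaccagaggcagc
KRT16P6: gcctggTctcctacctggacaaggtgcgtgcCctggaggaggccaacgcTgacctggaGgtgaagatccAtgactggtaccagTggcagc
In these bases KRT16P2 and KRT16P3 do not differ from KRT16 at all, KRT16P1 differs at 1 and KRT16P6 at 6. Over the best local alignment of the whole transcripts the identity with KRT16 was 94.6% for KRT16P1, 94.8% for KRT16P2, 94.7% for KRT16P3 and 88.4% for KRT16P6.

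The KRT16 row itself held 13.2, 9.79 and 10.3 TPM in LC-2/ad parent and 21.6, 18.9 and 18.9 in treated libraries. On its own it rose by 0.79 ± 0.12 (adjusted p = 7.93e-04), with separate groups. The 6 KRT16 pseudogenes in the tables summed to 44.8, 37.8 and 39.9 TPM in parent and 8.13, 7.05 and 7.65 in treated libraries. They were thus higher than KRT16 in every parent library and lower in every treated one. KRT16P2 alone fell by 2.2 ± 0.12 (adjusted p = 4.82e-06), KRT16P1 by 1.91 ± 0.11 (7.07e-06), KRT16P6 by 1.57 ± 0.17 (1.35e-04) and KRT16P3 by 0.78 ± 0.25 (adjusted p = 0.0314). With the pseudogene rows added, KRT16 went from 58.0, 47.6 and 50.2 TPM to 29.7, 25.9 and 26.5, and the log2 fold change turned to -0.90 (adjusted p = 8.18e-05). How the authors' counting shared reads among these rows was not tested. All 6 pseudogenes were listed at 0 in TPC-1.

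**Figure D3:**
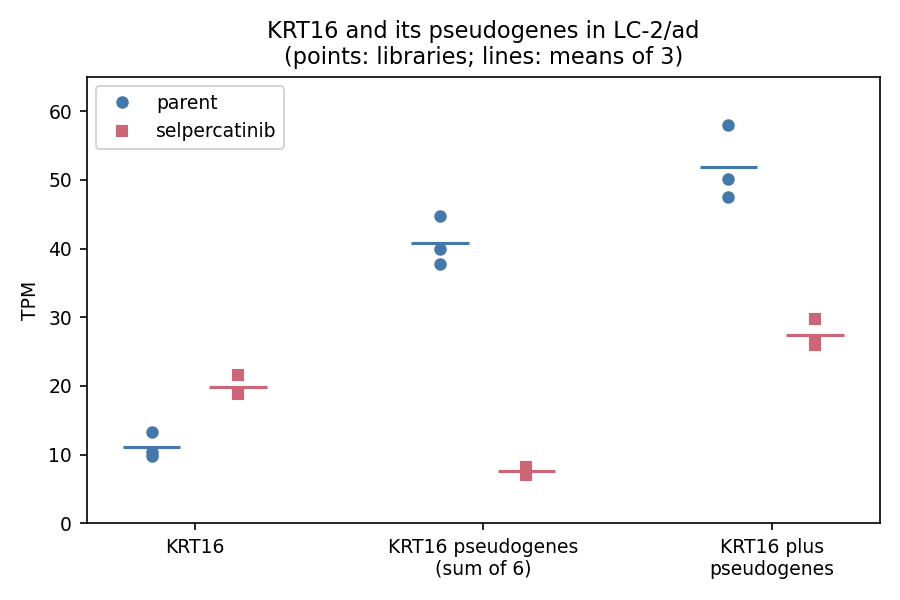
TPM of KRT16, of its 6 pseudogenes summed and of all of them together in LC-2/ad; points are libraries and short lines are means of 3, with parent and selpercatinib-treated cells side by side. The treated points lie above the parent points for KRT16 alone and below them for the pseudogenes and for the total.

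Of the hair shaft keratins, KRT81 rose in both lines from very different levels. KRT81, a type II keratin on chr12:52285913-52291534 (minus strand), shares long stretches with its neighbours KRT86 and KRT83. The 90 bases of exon 1 printed here were picked as the coding stretch with the fewest differences among them. The windows, in transcript sense from GENCODE 29 on GRCh38, lie at chr12:52291154-52291243 (minus) for KRT81, chr12:52302139-52302228 (plus) for KRT86 and chr12:52321009-52321098 (minus) for KRT83, and a capital marks a base that differs from KRT81.
KRT81: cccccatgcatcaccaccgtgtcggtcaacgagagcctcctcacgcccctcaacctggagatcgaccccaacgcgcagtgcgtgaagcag
KRT86: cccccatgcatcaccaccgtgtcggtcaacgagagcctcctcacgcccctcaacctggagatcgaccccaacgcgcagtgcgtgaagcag
KRT83: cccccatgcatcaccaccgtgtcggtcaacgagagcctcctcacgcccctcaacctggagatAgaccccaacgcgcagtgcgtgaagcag
Over the best local alignment of the transcripts KRT81 matched KRT86 at 96.6% of bases and KRT83 at 94.1%. Of the 31-base words in KRT81 transcripts 42.5% also occur in KRT86.

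In TPC-1 KRT81 was at 1192, 1157 and 1214 TPM in parent libraries and 1726, 1829 and 1666 in treated ones. It rose by 0.55 ± 0.05 (adjusted p = 4.67e-04), to 1.47 times the parent mean. In LC-2/ad it was at 4.13, 4.20 and 3.85 TPM in parent and 7.81, 7.44 and 7.27 in treated libraries. There it rose by 0.75 ± 0.09 (adjusted p = 3.04e-04), to 1.85 times the parent mean. Summing the KRT81, KRT83 and KRT86 rows gave 0.71 in LC-2/ad (adjusted p = 3.02e-04) and 0.55 in TPC-1 (adjusted p = 4.67e-04), a choice made after the values were seen. The ratio of KRT81 to KRT86 was 1.13 to 1.80 for LC-2/ad libraries and 266 to 385 for those of TPC-1.

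KRT86, the near copy of KRT81, has an annotated span that overlaps KRT81 by 5622 bases on the opposite strand and KRT7 by 2887 bases on the same strand. These spans include introns, and the overlap of exons was not measured. Strand use in the counting is not given in the sources used here. Of the 31-base words in KRT86 transcripts 34.7% also occur in KRT81, so the values of KRT86 are uncertain. In LC-2/ad it was at 3.64, 2.33 and 3.24 TPM in parent and 4.64, 5.40 and 4.28 in treated libraries. Its log2 fold change of 0.51 ± 0.16 passed (adjusted p = 0.0245). It missed the threshold without the filter (0.0641) and when parent library 2 (0.0666), treated library 1 (0.0532) or treated library 2 (adjusted p = 0.0796) was left out. In TPC-1 the values were 3.09, 3.79 and 4.12 TPM in parent and 6.48, 5.89 and 4.87 in treated libraries. These groups were separate, but the log2 fold change of 0.53 did not pass (adjusted p = 0.0834).

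KRT40, a type I hair keratin with no 31-base word shared with another gene, fell in LC-2/ad. Its values were 2.09, 2.27 and 2.18 TPM in parent and 0.769, 0.811 and 0.626 in treated libraries, a fall by 0.88 ± 0.15 (adjusted p = 0.00173). KRT39, its neighbour, was at 1.18, 1.61 and 2.37 TPM in parent and 0.824, 1.65 and 2.50 in treated libraries, which overlapped (log2 fold change -0.06, adjusted p = 0.869). KRT222, a truncated type I keratin-like gene, was tested only in TPC-1. It was at 2.44, 2.00 and 2.36 TPM in parent and 0.562, 1.04 and 1.11 in treated libraries. The groups were separate, but the log2 fold change of -0.79 ± 0.19 missed the threshold (adjusted p = 0.0515), and it passed at a pseudocount of 5 (0.0462), with median-of-ratios scaling (0.0443) and without the variance trend (adjusted p = 0.0350). Of its 31-base words 33.9% also occur in an overlapping gene on the same strand, AC073508.2.

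By type, the direction of the calls can be counted for each line. In LC-2/ad 5 of 8 tested type II genes rose and 2 fell, and 2 of 9 type I genes rose and 5 fell, where 30.6% of all genes rose and 24.4% fell. The 2 type I genes that rose were KRT17 and KRT16, whose sign turned with its pseudogene rows added. In TPC-1 3 of 5 tested type II genes rose and none fell, and 1 of 5 type I genes fell and none rose, where 3.75% of all genes rose and 1.21% fell. The 1 TPC-1 type I call was KRT18, and KRT10, KRT15, KRT19 and KRT222 did not pass there. The median log2 fold change of type II members was 0.47 in LC-2/ad against 0.42 in TPC-1, and that of type I members -0.26 and -0.17. The difference between the types was not tested. By class, the 5 tested simple epithelial keratins split 2 up and 3 down in LC-2/ad. The 3 tested wound keratins split 2 up and 1 down there, and no wound keratin reached the minimum level in TPC-1. The 9 root sheath keratins were too low to test in both lines.

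The sums by type are set mainly by the abundant genes. Over all 53 members, type I TPM in LC-2/ad were 3478 ± 37.2 (SD, n = 3) in parent and 2557 ± 12.8 in treated cells, and type II TPM were 4281 ± 178 and 4681 ± 86.4. In TPC-1 type I TPM were 1302 ± 101 and 967 ± 8.17, and type II TPM 5001 ± 29.3 and 6006 ± 259. The treated type I sum was thus 0.735 of the parent sum in LC-2/ad against 0.743 in TPC-1, lower in every treated library than in every parent library. The type II share of keratin TPM was 55.2% ± 1.02 in LC-2/ad parent cells and 64.7% ± 0.518 in treated cells. In TPC-1 it was 79.4% ± 1.27 and 86.1% ± 0.596. These shares are descriptions and were not tested, since the members were chosen with results of these data known.

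**Figure D4:**
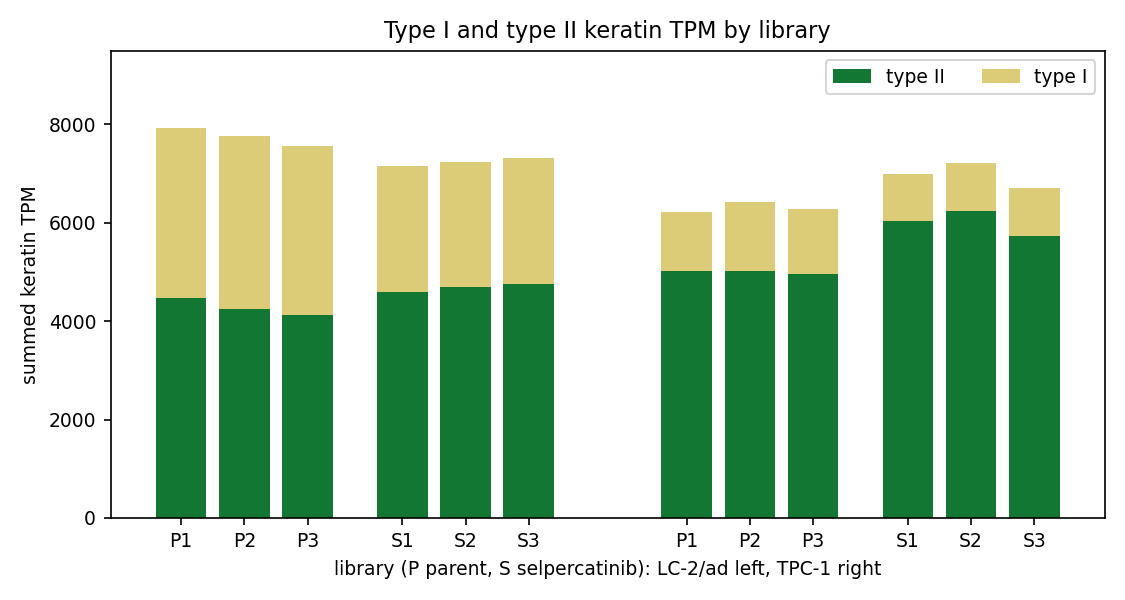
Summed TPM of type II and type I keratins, stacked from 0, in each library (P parent, S selpercatinib), with LC-2/ad on the left and TPC-1 on the right. The type I part is smaller in all treated libraries of each line than in its parent libraries.

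The total keratin sum, in TPM as deposited, was lower after treatment in LC-2/ad and higher in TPC-1. It was 7759 TPM ± 186 in LC-2/ad parent and 7237 ± 76.7 in treated cells, and 6303 ± 106 and 6974 ± 254 in TPC-1. The change of -522 TPM in LC-2/ad became -1013 under median-of-ratios scaling and -128 with mitochondrial transcripts removed. That last value is smaller than the parent SD of 186 TPM before removal, so a fall in LC-2/ad is not secure. The change of 671 TPM in TPC-1 became 399.8 under median-of-ratios scaling. Keratins made up 0.621% to 0.794% of all TPM in the 12 libraries. Simple epithelial keratins supplied 96.6% of the keratin TPM of parent LC-2/ad cells and 96.1% of that in treated cells. The wound class was at 0.308% and 1.07% in that line, a sum in which KRT16 is the highest member in parent cells and KRT17 in treated cells. In TPC-1 hair shaft keratins, nearly all of it KRT81, supplied 18.9% of keratin TPM in parent and 25.0% in treated cells.

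Between the lines, 9 keratins could be compared, and the response of 4 differed by the test of the difference itself. Over all 11996 genes compared 36.6% passed. KRT8, KRT15 and KRT18 fell less or did not pass in TPC-1, as given above, and KRT81 had a difference of -0.20 ± 0.07 (adjusted p = 0.0390). That of KRT81 is fragile. It turned to 0.083 at a pseudocount of 5 (adjusted p = 0.312) and missed the threshold under median-of-ratios scaling (0.0654), without the variance trend (0.0731), with the KRT81, KRT83 and KRT86 rows summed (adjusted p = 0.144) and when any of 7 single libraries was left out (adjusted p between 0.0562 and 0.0961). For KRT7 the difference was -0.09 ± 0.07 (adjusted p = 0.380), for KRT80 -0.05 ± 0.08 (0.630), for KRT19 0.10 ± 0.08 (0.398), for KRT86 0.02 ± 0.22 (0.963) and for KRT10 0.34 ± 0.13 (adjusted p = 0.0533). Without the filter on level 7 more keratins passed, namely KRT17 at -2.32, KRT4 at -1.72, KRT16 at -0.74, KRT6A at 1.37, KRT222 at -0.78, KRT23 at 0.55 and KRT85, a hair keratin, at 0.16 (adjusted p = 0.0292). In that fit 4902 of all 20284 genes passed. All 7 lay under the minimum level in at least 1 line, and KRT85 reached at most 0.134 TPM in any library. KRT17, KRT4, KRT16 and KRT6A had means of at most 0.236 TPM in TPC-1, so their differences rest mainly on the change in LC-2/ad. A value that misses the threshold does not show that the lines responded alike. KRT7, KRT18, KRT80 and KRT81 were called in both lines in the same direction, which is 28.6% of the 14 keratins called in LC-2/ad and 100% of the 4 called in TPC-1. Of the 9 keratins tested in both lines these are 4. Among all 11996 genes tested in both, 304 (2.53%) were called in the same direction. Calls over all genes numbered 7770 for LC-2/ad and 636 for TPC-1, so a large part of the TPC-1 calls was shared in any case. The 100%, over 4 keratins, therefore says little about keratins as a group.

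Members that are neighbours in the genome moved both together and apart in LC-2/ad. On chromosome 17, KRT13, KRT15 and KRT19 lie side by side from 41500981 to 41528308 and all fell, while KRT16 and KRT17, from 41609778 to 41624842, rose, with the limit on KRT16 given above. On chromosome 12, KRT80, KRT7, KRT86 and KRT81 lie between 52168996 and 52309163 and all rose, with the limits on KRT86 given above. KRT6A, farther along, fell. KRT4, at 52806549 to 52814551, rose, and KRT8 and KRT18, from 52897187 to 52952901, both fell, although KRT18 is a type I gene. KRT78, between KRT4 and KRT8, did not pass. Nor did KRT10 and KRT39 on chromosome 17, where KRT40, next to KRT39, fell. In TPC-1 the members called upward, KRT80, KRT7 and KRT81, are 3 of those 4 chromosome 12 neighbours. Of the 5 type II genes tested in TPC-1 only KRT8 lies outside that stretch. The stretches were not fixed beforehand and were not tested, and in LC-2/ad 30.6% of all genes rose and 24.4% fell.

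Proteins of desmosomes and hemidesmosomes anchor keratin filaments at the cell surface. Of 22 such genes measured, 16 were tested in LC-2/ad, 9 rose and 2 fell, where 30.6% of all genes rose and 24.4% fell. Their median log2 fold change was 0.14, against 0.07 over all genes. The cytolinker EPPK1 rose by 0.67 ± 0.11 (2.68 to 4.83 TPM), the envelope plakin EVPL by 0.61 ± 0.04 (77.0 to 118 TPM) and desmoplakin, DSP, by 0.54 ± 0.06 (18.1 to 26.7 TPM). PKP3, a desmosomal plaque protein, fell by 0.22 ± 0.04 and the laminin receptor subunit ITGA6 by 0.46 ± 0.10. In TPC-1, where 4.96% of all genes passed, 12 were tested, PKP3 rose by 0.48 ± 0.08 (adjusted p = 0.00911) and ITGA6 fell by 0.49 ± 0.11 (adjusted p = 0.0355). PKP3 was thus called in opposite directions in the lines.

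Among the other intermediate filament genes, 1 of 8 tested rose in LC-2/ad and 4 fell, with a median of -0.28, against 30.6% and 24.4% of all genes and a median of 0.07. Vimentin, VIM, the filament of mesenchymal cells, went from 3.45, 3.91 and 3.62 TPM to 6.67, 8.72 and 9.62, a rise by 0.99 ± 0.14 (adjusted p = 5.58e-04) that left it far below KRT8. The lamins of the nuclear envelope LMNB1 and LMNB2 fell by 1.68 ± 0.05 and 1.25 ± 0.06, and nestin, NES, fell by 1.26 ± 0.11. In TPC-1 0 of 7 passed by limma, where 4.96% of all genes did, and VIM, at 4080 TPM ± 149.7 in parent and 4032 ± 166 in treated cells, was higher than any keratin in every group of that line.

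Transcription factors known from the control of epithelial and keratin genes moved both ways in LC-2/ad, with 11 of 23 tested up and 7 down (median 0.09), where 30.6% of all genes rose and 24.4% fell (median 0.07). GRHL3 rose by 0.78 ± 0.14, OVOL2 by 0.71 ± 0.08 and JUN by 0.63 ± 0.05. FOSL1, an AP-1 subunit, fell by 1.21 ± 0.06, FOS, another, by 1.05 ± 0.14, and TP63, the factor of basal cells, by 0.90 ± 0.19 (3.02 to 1.12 TPM). In TPC-1 3 of 20 rose and none fell (median 0.15), where 3.75% of all genes rose and 1.21% fell (median 0.05), and these were ELF3 by 0.83 ± 0.10, CEBPB by 0.63 ± 0.10 and JUND by 0.38 ± 0.08. CEBPB fell by 0.65 ± 0.05 in LC-2/ad.

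Of the genes of the cornified envelope and late keratinocyte differentiation, 1 of 10 tested rose and 4 fell in LC-2/ad (median -0.27), where 30.6% of all genes rose and 24.4% fell (median 0.07). S100A9, a calcium-binding alarmin, fell by 1.82 ± 0.05 (1036 to 294 TPM), SPRR3, an envelope protein of mucosa, by 1.31 ± 0.18 and SFN, the epithelial 14-3-3 protein, by 0.92 ± 0.05. The epidermal protease KLK5 rose by 1.28 ± 0.07 (15.8 to 39.8 TPM). In TPC-1 4 were tested, where 4.96% of all genes passed. Filaggrin, FLG, which bundles keratin filaments in skin, rose by 1.12 ± 0.11 (adjusted p = 6.61e-04), and sciellin, SCEL, fell by 0.75 ± 0.14 (adjusted p = 0.0201). SCEL fell in LC-2/ad too, by 0.73 ± 0.05 (170 to 103 TPM, adjusted p = 1.90e-05). KRT10, the keratin of the layer where FLG is made, did not pass in TPC-1.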

How the data were processed

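The deposited values were TPM per Ensembl gene and library, in 1 table per line with the same 37247 rows. Each column summed to 1000000, so the authors scaled TPM within a library. Tools in the submitters' processing notes are Salmon and bcl2fastq 2.20.0, and the build there is GRCh38, with no roles given. The annotation, the summing of transcripts to genes, strand use and filters are not given in the sources used here.

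Log2(TPM + 1) was compared within each line with limma 3.58.1 in R 4.3.3 (variance trend, two-sided) for genes with a mean of at least 1 TPM over 6 libraries, with Benjamini-Hochberg adjustment over all genes tested and a threshold of 0.05. Fold changes on this scale understate changes of low genes. For the contrast between lines, fold changes were subtracted (TPC-1 minus LC-2/ad) in 1 model of the 12 libraries, where genes needed a mean of at least 1 TPM in both. The tests were tried on simulated data.

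Every keratin at a mean of 1 TPM was named, and lower ones where a group mean reached 0.5 or a call appeared without the filter. From the other lists up to 3 called genes per direction were named. The members and lists were chosen with earlier results of these data known. CDH1, EPCAM, NKX2-1, PAX8 and the other cell type markers, SCEL in LC-2/ad and repeat mentions of VIM and CEBPB serve as checks or comparisons. Coordinates, transcripts and shared 31-base words are from GENCODE 29 and local alignments from Python 3.11.15. Promoter windows of KRT7, KRT18, KRT80 and KRT81 were not used here.

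Alternatives were no variance trend, median-of-ratios scaling, mitochondrial genes left out, a minimum mean of 5 TPM or none, pseudocounts of 5 and 0.1, the replicate number used as a block, and each library omitted in turn. Adding pseudogene rows, and summing KRT81, KRT83 and KRT86, were added after the data were seen.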

Additional observations from a re-analysis of the deposited data

Results flagged for a closer look

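KRT8, KRT15, KRT18 and KRT81 responded differently in the 2 lines by limma's test of the difference (TPC-1 minus LC-2/ad). That of KRT8 was 0.50 (adjusted p = 7.66e-06), with a fall by 0.67 in LC-2/ad against a value of -0.17 in TPC-1. KRT15 differed by 1.07 (adjusted p = 0.000927), with -1.14 in LC-2/ad against -0.07 in TPC-1. For KRT18 the difference was 0.25 (adjusted p = 0.00984), and it fell in both lines. The KRT18 call was lost with mitochondrial genes removed (0.16, adjusted p = 0.0791). KRT81 rose in both, with a difference of -0.20 (adjusted p = 0.0390). The KRT81 call was lost in 11 of 22 alternatives and its sign turned in 1.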

How the results depend on the processing

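Of 586 keratin values under the alternatives, 538 kept their direction and side of the threshold, 19 lost and 14 gained a call, and 15 changed sign. The counts of 14, 4 and 4 stayed within 1.5 times, except that 11 keratins differed between the lines without the filter, where 4902 of all 20284 genes did. The summed change was -1013 TPM (median-of-ratios scaling) or -128 (mitochondrial genes removed) in LC-2/ad, and 399.8 (median-of-ratios scaling) in TPC-1. Signs turned for KRT16 with pseudogene rows added (-0.90), with single libraries left out for KRT39 in LC-2/ad (-0.28 to 0.19) and KRT15 in TPC-1 (-0.18 to 0.027), and KRT81's difference at a pseudocount of 5 (0.083). That of KRT86 was -0.0040 at a pseudocount of 0.1, -0.063 with mitochondrial genes removed and -0.085 to 0.15 with single libraries left out, and that of KRT80 -0.10 to 0.00085 with single libraries left out. The cause was not tested.

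The replicate number as a block gave 13, 4 and 3 called keratins, without KRT86 in LC-2/ad (adjusted p = 0.0508) and KRT81's difference (0.0706). Under that model 7357 of all 14118 genes passed in LC-2/ad, 542 of 12825 in TPC-1 and 4227 of 11996 for the difference. Between the deviations of same-numbered parent and treated libraries r was -0.05 to -0.01 in LC-2/ad and -0.03 to 0.05 in TPC-1. Differently numbered ones had r of 0.0033 to 0.040 in LC-2/ad and -0.12 to 0.087 in TPC-1. With 3 libraries per group these values cannot show whether same-numbered libraries shared a batch.

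Of all genes in LC-2/ad 4319 rose and 3451 fell, against 3442 and 4318 under median-of-ratios scaling and 5216 and 2833 with mitochondrial genes removed. In TPC-1 481 rose and 155 fell, against 420 and 254 under median-of-ratios scaling. The TPC-1 count of 636 was 272 without the filter, 356 without the variance trend and 292 to 815 with single libraries left out. TPM carry no depth, so counting error is unknown, and low keratins are the least certain.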

Other observations

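Promoter windows from RefSeq (GRCh38.p14, 250 bases before to 50 after a start) were held for 32 of the 53 keratins, 36 windows in all. Of these keratins 5 were tested in a line (KRT4, KRT8, KRT10, KRT39 and KRT40), and the others were under the minimum level. The TATA element TATAAA, searched on both strands, occurred in 19 of the 36 windows (52.8%), against 11.5% of all 35116 windows. The AP-1 motif TGANTCA occurred in 0 of the 36, against 7.71% of all windows, and the GC box GGGCGG in 5 (13.9%), against 45.0%. These counts describe letters in the windows and were not tested.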
